A study of Rattus norvegicus with 98 samples.

Results

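Matrix metalloproteinases and their inhibitors were followed through the nasal epithelium of rats exposed to formaldehyde. The members were 10 genes, the inhibitors Timp1, Timp2 and Timp3 and the proteinases Mmp2, Mmp3, Mmp7, Mmp9, Mmp10, Mmp13 and Mmp14, chosen by name. They and the gene lists used below were chosen with earlier results of these data known. Their counts beside the share of all probe sets are therefore descriptions and not tests. Every probe set of the array annotated to 1 of these genes was taken, which gave 17 of the 31042 probe sets tested, and the 10 genes were among 14217 with a probe set. RNA came from 98 male F344/NCrl rats, 8 weeks old, 1 Affymetrix Rat230_2 array per rat. Cells were freed with proteases from the lateral meatus and nasoturbinate at level II of the nose, which the labels describe as mainly transitional with some respiratory epithelium. Inhalation was whole-body, in sessions of 6 h on each of 5 days a week.

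The first array set (82 arrays) held rats given air, 0.7, 2 or 6 ppm and collected at 6 h, 24 h, 5 d, 8 d or 19 d after exposure began. The second array set (16 arrays) held rats collected at 6 h after air, after 15 ppm, or after 40 ul of liquid in each nostril, either formaldehyde at 400 mM or distilled water. Of the 24 groups, 22 had 4 rats and 2 had 5 (2 ppm at 5 d, air at 8 d). The 15 ppm exposure and the instillation were each collected at 1 time only.

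Matrix metalloproteinases are zinc enzymes that cut collagen, laminin and other proteins outside the cell, and they also release growth factors and cytokines from the cell surface. TIMPs are small secreted proteins that bind the active site of these enzymes and hold them in check. In airway and skin, epithelial cells at a wound edge make stromelysins, matrilysin and collagenases as they migrate, stromal cells make gelatinase A and its membrane-bound activator, and neutrophils carry gelatinase B in granules. Several of these genes are known to be switched on by AP-1 and Ets transcription factors.

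The 250 bases before the RefSeq start were available for 7 of the 10 members on the GRCr8 assembly; Mmp2, Mmp9 and Mmp14 were not among them. Shown are the upstream sequences of the 3 members that instillation raised and for which a sequence was at hand (Timp1, Mmp7 and Mmp10), with Mmp3 and Mmp13, which lie in the same gene cluster. Each is written 5′ to 3′ on the strand of the gene and ends at the base before the start, with AP-1 (TGANTCA) and Ets (AGGAAG) matches on either strand in capitals.
Timp1, chrX:3771123-3771372, - strand: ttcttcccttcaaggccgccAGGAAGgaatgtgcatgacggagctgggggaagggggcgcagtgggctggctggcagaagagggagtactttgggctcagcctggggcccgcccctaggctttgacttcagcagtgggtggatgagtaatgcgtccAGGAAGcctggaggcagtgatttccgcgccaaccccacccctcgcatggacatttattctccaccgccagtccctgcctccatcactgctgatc
Mmp3, chr8:12925031-12925280, + strand: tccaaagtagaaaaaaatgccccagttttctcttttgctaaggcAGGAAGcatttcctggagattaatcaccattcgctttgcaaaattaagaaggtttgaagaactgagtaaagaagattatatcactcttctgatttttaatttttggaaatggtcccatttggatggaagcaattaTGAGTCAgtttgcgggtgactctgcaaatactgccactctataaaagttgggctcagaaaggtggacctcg
Mmp7, chr8:13132793-13133042, + strand: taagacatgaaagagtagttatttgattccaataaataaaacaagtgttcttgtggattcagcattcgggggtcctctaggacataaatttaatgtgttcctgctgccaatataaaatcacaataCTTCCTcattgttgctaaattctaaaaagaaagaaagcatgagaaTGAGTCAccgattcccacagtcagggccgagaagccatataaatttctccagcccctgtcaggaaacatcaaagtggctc
Mmp10, chr8:12974457-12974706, + strand: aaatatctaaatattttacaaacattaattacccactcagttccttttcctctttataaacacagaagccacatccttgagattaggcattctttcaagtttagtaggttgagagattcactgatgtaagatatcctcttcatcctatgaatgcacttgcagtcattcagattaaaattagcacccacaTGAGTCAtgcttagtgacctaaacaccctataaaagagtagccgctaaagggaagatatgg
Mmp13, chr8:12782579-12782828, + strand: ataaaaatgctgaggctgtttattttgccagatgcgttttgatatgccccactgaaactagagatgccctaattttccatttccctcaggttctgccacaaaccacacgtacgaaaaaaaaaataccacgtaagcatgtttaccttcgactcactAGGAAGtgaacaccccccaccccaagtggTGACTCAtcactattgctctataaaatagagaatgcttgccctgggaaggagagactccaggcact
TGANTCA was present in 4 of the 7 member sequences, against 6.34% of 33469 rat upstream sequences of the same length. AGGAAG was also present in 4 of the 7, against 29.5% of all. Mmp3, Mmp7, Mmp10 and Mmp13 each held 1 AP-1 match, which began 71, 80, 61 and 66 bases before the start. Timp1 held no TGANTCA and 2 AGGAAG copies, at 230 and 94 bases before the start. Only exact matches were sought, and the Timp1 window holds TGAGTAA, a near match to TGANTCA that was not counted. The Timp1 window lies inside the gene's span, because another transcript of Timp1 starts further upstream. The windows of Timp2 and Timp3 held neither motif. The 4 members with an exact TGANTCA match lie in 1 unbroken run of 10 protein-coding Mmp genes on rat chromosome 8. The order is Mmp13, Mmp12, Mmp1b, Mmp3, Mmp1, Mmp10, Mmp8, Mmp27, Mmp20 and Mmp7. The 2 motifs share no letters in these windows.

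Values are the deposited log2 values, on which a difference of 1 is a 2-fold change. A gene with several probe sets was led by the one with the highest mean over the 98 arrays, and its others are numbered in order of that mean. A probe set was called when limma's two-sided moderated test gave a Benjamini-Hochberg adjusted p under 0.05 over all 31042 probe sets. Within groups, pairs of arrays correlated at 0.962 to 0.995 across probe sets. The RNA integrity number, given for 85 arrays, ran from 7.2 to 8.8. The epithelial label was borne out by strong basal markers (Krt5, Krt14 and Krt15) and secretory and ciliated markers, each list averaging over 8.7 in every animal. Some markers of these lists were low, with means over the 98 arrays of 3.56 for Ivl, 5.13 for Ngfr, 5.44 for Scgb1a1 and 4.62 for Reg3g. The mean log2 level of 7 olfactory markers was also high, 7.79 to 12.17 across animals, although the labels say olfactory epithelium was discarded. Stromal and vessel markers were present as well (9.22 to 11.29). RNA came from mixed cells, so fewer cells of a type and less RNA per cell cannot be told apart.

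Timp1, the inducible secreted inhibitor, rose with 15 ppm and with instilled formaldehyde, by more than the spread between animals. The 4 air animals of the second array set had Timp1 values of 9.96, 10.46, 10.19 and 10.22, a mean of 10.21 ± 0.21 (SD, n = 4). The 4 animals at 15 ppm had 11.61, 11.32, 11.17 and 11.74, a mean of 11.46 ± 0.26. The lowest exposed animal stood above the highest air animal. The share of all probe sets whose groups separate in this way is not given, here or for the members below. The change was 1.25 (SE 0.22), a 2.38-fold rise, with an adjusted p of 2.11e-05. After instillation of formaldehyde the Timp1 values were 11.80, 11.77, 12.06 and 11.91 (mean 11.88 ± 0.13), against 10.31, 10.38, 10.67 and 11.36 with water (mean 10.68 ± 0.48). Here too no animal of one group reached the other, although 1 water animal came near. The rise over water was 1.20 (SE 0.22), or 2.30-fold (adjusted p = 1.23e-05). Water itself gave Timp1 0.47 above air (SE 0.22), which did not pass the test (adjusted p = 0.437).

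Across the whole series the instilled animals had the highest Timp1 values, and the 15 ppm animals came next. The means of the 20 groups of the first array set lay between 9.77, at 0.7 ppm and 8 d, and 10.69, at 6 ppm and 24 h. No animal of that set exceeded 11.11, below the lowest 15 ppm animal, whereas 1 water animal at 11.36 lay among the 15 ppm animals. At 6 ppm and 6 h the Timp1 values were 10.76, 10.71, 9.61 and 10.26, and the change from air of the same set was -0.06. The 15 ppm effect exceeded the 6 ppm effect at 6 h by 1.31 (SE 0.31; adjusted p = 0.0113), each dose being set against the air animals of its own array set. Of the 17 probe sets Timp1 was the 1 called in that difference, where 1.19% of all probe sets were called. Without animal 286 of the 6 ppm group, whose 9.61 was the lowest, the difference was 1.07 and was not called (adjusted p = 0.0612).

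**Figure D1:**
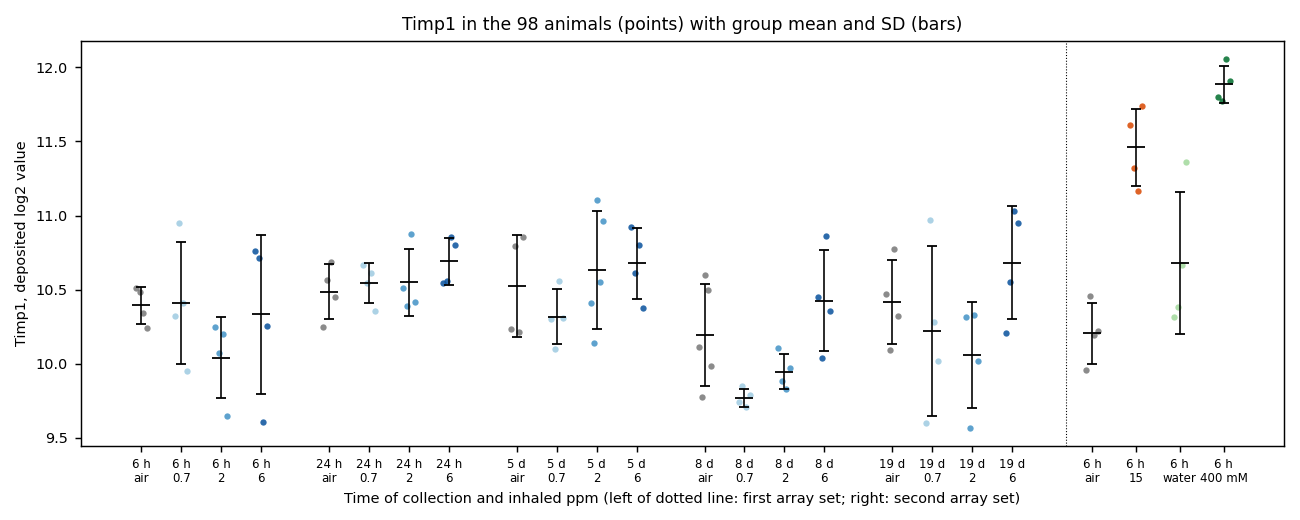
Timp1 in every animal, as deposited log2 value, by time and inhaled ppm in the first array set (left of the dotted line) and in the second array set (right). Points are animals, bars the group mean and SD; the 4 animals at 15 ppm (11.17 to 11.74) and the 4 instilled with 400 mM formaldehyde (11.77 to 12.06) stand above all 82 animals of the first array set.

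No other member passed the test at 15 ppm. Timp1 was 1 of 17 probe sets called, against 8.49% of all probe sets, and 4.32% of all probe sets were called as rises, so the count for the family lay close to the background. The median change of the 10 leading probe sets was 0.12, against 0.01 over all probe sets, and 6 of the 10 were above 0. Instilled formaldehyde called 5 of the 17 as rises (Timp1, Mmp7, both probe sets of Mmp9, and Mmp10) and none as falls. The count was 2 without instilled animal 374 or water animal 355 and 3 without water animal 352 or 354. Among all probe sets 22.2% were called in either direction and 9.83% as rises, and the median of the 10 leading probe sets was 0.19 against 0.02. Water against air called none of the 17 in limma, with 1 at an unadjusted p under 0.05, where 0.0129% of all probe sets were called. The comparison of 15 ppm with air and that of water with air share the same 4 air animals.

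Mmp9, the gelatinase that neutrophils store in granules, was higher after instillation in both of its probe sets. The water animals had values of 5.36, 5.54, 5.19 and 5.33, and the instilled animals 5.81, 5.96, 6.14 and 6.73, for the leading probe set. The groups did not overlap. The rise was 0.80 (SE 0.25), or 1.75-fold, with an adjusted p of 0.0141, and the second probe set rose by 0.52 (adjusted p = 0.0476). Without animal 374, the instilled animal at 6.73, the change of the leading probe set was 0.62 and was no longer called (adjusted p = 0.114). The call of the second probe set was lost without any 1 of animals 352, 354, 355, 372 and 374 (0.34 to 0.54; adjusted p from 0.0641 to 0.299), under cyclic loess scaling between arrays (adjusted p = 0.099) and when only the groups compared were fitted (adjusted p = 0.102). At 15 ppm Mmp9 read 5.78, 5.45, 5.16 and 5.44 against 4.99, 4.99, 5.14 and 5.10 in air. Every 15 ppm animal lay above every air animal, the closest by 0.02 in these rounded values, but the change of 0.40 (SE 0.25) did not pass the test (adjusted p = 0.404).

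Neutrophil markers moved with Mmp9. The mean log2 level of 7 neutrophil markers ran from 5.67 to 6.04 in air and from 6.84 to 7.19 at 15 ppm, and from 6.01 to 6.56 with water and from 7.87 to 8.82 with instilled formaldehyde. Of these 7 markers, 4 were called as rises at 15 ppm (median of the list 1.14) and 6 after instillation (median 2.35), with the calgranulins S100a8 and S100a9, the chemokine receptor Cxcr2 and the G-CSF receptor Csf3r called in both. Mmp8, the neutrophil collagenase, gave 0.69 at 15 ppm (adjusted p = 0.191) and rose by 1.57 (2.97-fold) after instillation. Macrophage and dendritic cell markers reached 8.84 to 9.46 in instilled animals against 8.70 to 9.01 with water. Of these 9, Lyz2, a lysozyme gene, rose in both exposures (0.65 and 0.89) and Cd68 after instillation (0.65). The median of the macrophage list was -0.18 at 15 ppm and 0.29 after instillation. At 15 ppm Cd14, Csf1r, Adgre1, Cd74, C1qa and C1qb lay below 0 and Cd68 and Mrc1 above 0, none of them called. Ciliated cell markers averaged 9.73 to 9.83 in instilled animals and 10.07 to 10.40 with water, without overlap, and 1 of 5 was called, Foxj1, the regulator of motile cilia, which fell by 0.66. Of 9 basal and squamous markers, Sfn, or stratifin, rose in both exposures (1.91 and 1.71) and Ngfr after instillation (0.65). The median of that list was 0.12 and 0.14. Krt5, Krt15 and Tp63 lay below 0 in both exposures and Krt14, Krt17 and Ivl above 0, none of them called. Beside the counts of all these cell type lists, 8.49% of all probe sets were called at 15 ppm and 22.2% after instillation. Among 8 secretory markers Reg3g, an antimicrobial lectin, rose by 2.37 after instillation. Olfactory markers averaged 10.43 in air, 10.15 at 15 ppm, 9.14 with water and 8.53 with instilled formaldehyde, with none of the 7 called in either comparison. Whether these marker changes reflect cell make-up was not tested, nor was the part of cell make-up in the changes of Timp1, Mmp9, Mmp7 and Mmp10.

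The stromelysins Mmp3 and Mmp10, which cut many matrix proteins and activate other proteinases, had low signals near the dim end of the array. Only 19.3% of probe sets had a lower mean than Mmp3 and 10.8% a lower mean than Mmp10. Mmp3 read 3.52, 3.65, 3.55 and 4.01 in air and 4.14, 4.23, 4.36 and 4.45 at 15 ppm. It read 3.46, 3.72, 3.76 and 3.93 with water and 4.37, 4.24, 4.05 and 4.89 after instilled formaldehyde. Both exposures lay wholly above their controls, yet neither change passed the test: 0.61 (SE 0.26; adjusted p = 0.154) at 15 ppm and 0.67 (SE 0.26; adjusted p = 0.0573) after instillation. When each comparison was fitted on its own groups alone, Mmp3 was called in both (adjusted p = 0.0139 and 0.0385). With the first set's air as control the 15 ppm change of Mmp3 was 0.07 (adjusted p = 0.889), and air of the second set minus air of the first was -0.54 (adjusted p = 0.275). In the fit to all groups it was called after instillation when instilled animal 372 was left out (0.78; adjusted p = 0.0366).

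Mmp10 gave no difference at 15 ppm (0.00, 95% interval -0.16 to 0.15). After instillation it read 3.86, 4.01, 3.68 and 4.14, against 3.74, 3.54, 3.73 and 3.85 with water, groups that overlapped. The rise of 0.21 (SE 0.08) lay at the threshold (adjusted p = 0.0495), and the call was lost without any 1 of animals 352, 354, 355, 369 and 374 (0.14 to 0.21; adjusted p from 0.0702 to 0.302). It was also lost under cyclic loess scaling between arrays (adjusted p = 0.228) and when only the groups compared were fitted (adjusted p = 0.289).

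Mmp7, or matrilysin, is the small epithelial proteinase that airway cells make in repair and that processes defensins. It read 4.35, 4.55, 4.42 and 4.07 in air and 4.62, 4.69, 4.22 and 4.59 at 15 ppm, groups that overlapped, with a change of 0.18 (adjusted p = 0.553). With water it read 4.48, 4.34, 4.22 and 4.70, and with instilled formaldehyde 5.28, 4.62, 5.24 and 4.54. In the latter, 2 animals stood well above every water animal and the other 2 lay among them. The rise was 0.48 (SE 0.15), or 1.40-fold (adjusted p = 0.0112), and the call was lost without instilled animal 365 or 372 or water animal 355 (0.37, 0.38 and 0.41; adjusted p from 0.0606 to 0.0894). Fitted on the groups compared alone, Mmp7 was not called (adjusted p = 0.136).

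The remaining members were abundant on the array and gave no call at 15 ppm or after instillation. Mmp13, the rodent interstitial collagenase, lay between 10.32 and 11.43 in all 16 animals of the second array set. Its change was 0.12 (95% interval -0.48 to 0.72) at 15 ppm and -0.08 (95% interval -0.67 to 0.52) after instillation. Mmp2 and Mmp14, gelatinase A and the membrane proteinase that activates it, gave 0.12 and -0.05 at 15 ppm. After instillation they gave -0.09 and -0.36, the latter with 2 animals at 8.94 and 9.27 and 2 at 10.03 and 10.04 (adjusted p = 0.268). Timp2, which takes part in that activation as well as inhibiting, gave -0.09 and 0.17, and Timp3, the inhibitor bound to matrix, gave -0.06 in both. A p above the threshold does not show that these genes did not respond.

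**Figure D2:**
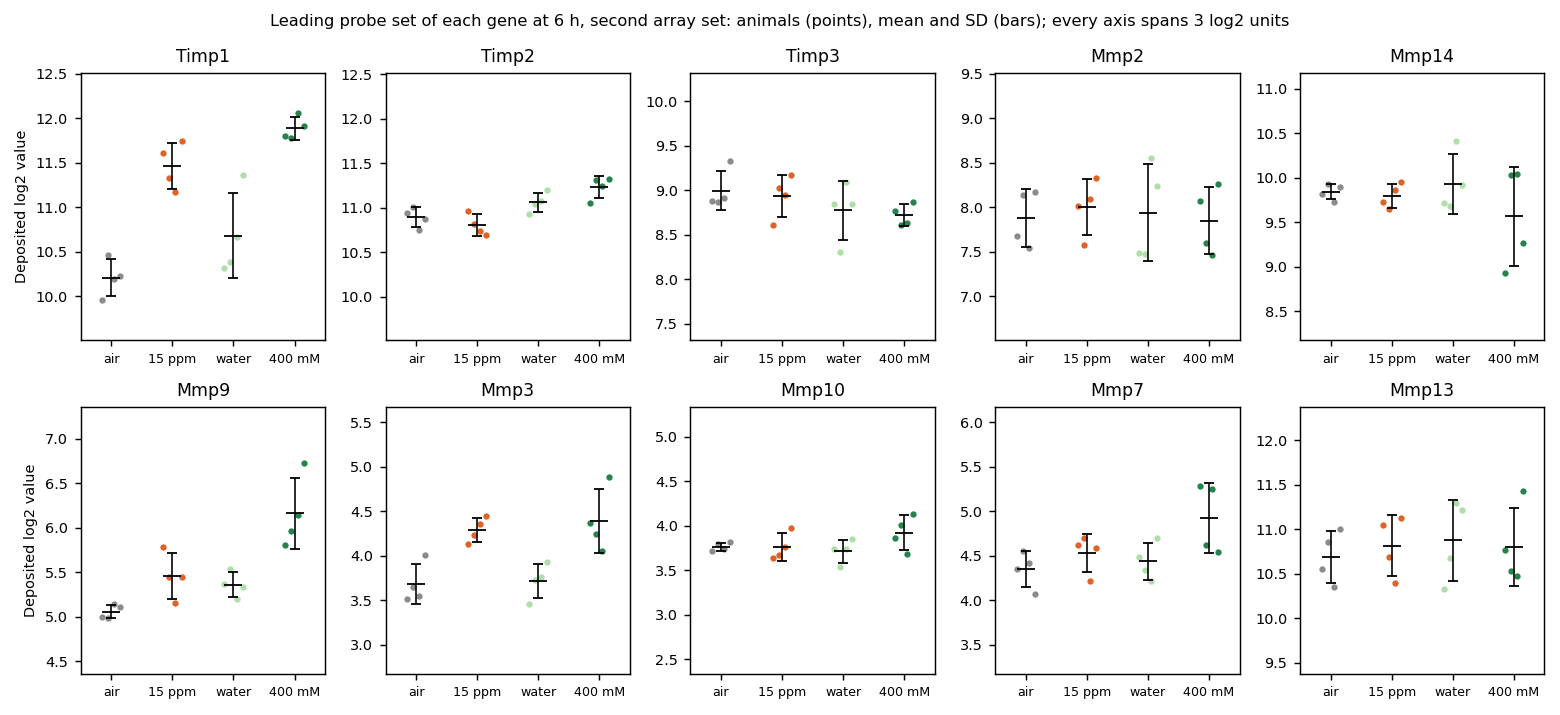
Leading probe set of each member in the 4 groups of the second array set, all collected at 6 h: air, 15 ppm, instilled water and instilled 400 mM formaldehyde. Points are animals, bars the mean and SD, and every vertical axis spans the same number of log2 units. Timp1, Mmp3 and Mmp9 stand wholly above their controls in both exposures, Mmp9 at 15 ppm only narrowly, while Mmp13, Mmp2 and Timp3 overlap theirs. Mmp3 in both exposures and Mmp9 at 15 ppm were not called in limma. The share of all probe sets whose groups separate in this way is not given.

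Inhalation and instillation were also set against each other by testing the difference between the 2 effects, 15 ppm minus air and instilled formaldehyde minus water. None of the 17 probe sets differed in limma (smallest adjusted p = 0.561, none at an unadjusted p under 0.05), where 0.879% of all probe sets did. For Timp1 the difference was 0.05, with a 95% interval from -0.56 to 0.66. For Mmp9 it was -0.40 (95% interval -1.12 to 0.31) and for Mmp7 -0.30 (95% interval -0.72 to 0.12). A call after instillation and none at 15 ppm is therefore not a shown difference between the routes for Mmp7, Mmp9 or Mmp10.

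Other genes of the proteolytic system came from lists chosen together with the members. Their counts stand beside 8.49% of all probe sets called at 15 ppm and 22.2% after instillation. Among 10 other matrix metalloproteinases none rose and 2 fell at 15 ppm, and 1 rose and 2 fell after instillation. The falls were the same 2 genes, the membrane-type proteinases Mmp15 (-0.40 and -0.87) and Mmp24 (-0.31 and -0.36), and the rise was Mmp8. The median of that list was 0.03 at 15 ppm and -0.07 after instillation, against -0.02 and 0.00 over all genes. Of 3 other inhibitors, Timp4 fell by 0.47 at 15 ppm (adjusted p = 0.0441), opposite in sign to Timp1, and gave -0.14 after instillation. Among 10 ADAM and ADAMTS proteinases, Adam10, which sheds many surface proteins, fell by 0.56 and 0.51, and Adamts15 fell by 1.06 and 1.52. After instillation Adam9 fell by 1.16 and Adam17, the TNF-releasing sheddase, rose by 0.63.

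Plasminogen activation feeds into the activation of several metalloproteinases. The urokinase receptor Plaur rose by 3.55 (SE 0.37) at 15 ppm and by 4.28, or 19.5-fold, after instillation. Urokinase itself, Plau, gave 0.49 at 15 ppm (adjusted p = 0.249) and rose by 1.05 (2.08-fold) after instillation. The other 4 measured genes of this list were not called, and the median of the 6 was 0.52 and 0.82. Of 11 matrix substrates none was called at 15 ppm and 1, Col1a1, fell by 0.81 after instillation.

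Transcription factors and cytokines known to induce metalloproteinases gave 1 rise of 15 genes at 15 ppm and 10 rises after instillation. Among all probe sets 4.32% were called as rises at 15 ppm and 9.83% after instillation. The 1 rise at 15 ppm was the AP-1 subunit Fosl1, by 3.41 (SE 0.25), and Fosl1 rose by 3.65 after instillation. The other rises after instillation were Il1a (4.49), Il1b (4.37), Il6 (3.75), Tnf (3.01), Osm (2.79), Junb (0.91), Fosl2 (0.84), Fos (0.55) and Lif (0.47). Il1b gave 1.75 at 15 ppm (adjusted p = 0.0854). The difference between the 2 effects was called as larger in instillation for 4 of the 15 genes, where 0.879% of all probe sets were called in either direction.

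Lower inhaled doses gave no call for any member. Over 15 comparisons, 0.7, 2 and 6 ppm with air at 5 times, none of 255 tests was called in limma, where 0.0595% of all tests were. The smallest adjusted p was 0.197, for Timp2 at 6 ppm and 6 h. Of the 255, 15 (5.88%) had an unadjusted p under 0.05, against 6.28% of all tests. Changes lay between -0.56, for Mmp3 at 6 ppm and 5 d, and 0.73, for Timp3 at 2 ppm and 5 d, which was called at 0.91 without 2 ppm animal 216 (adjusted p = 0.0367). The 3 doses at a time share that time's air animals. Averaged over the 5 times the members again gave no call in limma at 0.7, 2 or 6 ppm, with 0, 1 and 4 of the 17 at an unadjusted p under 0.05. Among all probe sets 0%, 0.361% and 6.37% were called in these averages. The largest of the 10 leading changes at 6 ppm was that of Timp3, 0.28 (SE 0.10; adjusted p = 0.0833), and the lowest was that of Mmp3, -0.25 (adjusted p = 0.176). The Timp3 average was called without air animal 66 (0.35; adjusted p = 0.00936) or 6 ppm animal 299 (0.32; adjusted p = 0.0422). The second Mmp2 probe set, at 0.14 (adjusted p = 0.0631), was called without any 1 of animals 67, 76, 287, 289, 293 and 310 (0.15 to 0.16). Fosl1 and Plaur, by comparison, rose by 0.72 and 0.93 in the 6 ppm average. Mmp24, which is not a member, fell by 0.18 in that average (adjusted p = 0.00813 in limma).

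Timp3 at 5 d gave the largest difference at the lower doses. Its values were 9.62, 9.92, 9.94 and 9.51 in air, 10.26, 9.76, 11.10, 10.45 and 10.81 at 2 ppm, and 10.26, 10.02, 10.74 and 10.41 at 6 ppm. At 6 ppm every animal lay above every air animal, and at 2 ppm 4 of 5 did. The changes were 0.73 (SE 0.22; adjusted p = 0.235) and 0.61 (SE 0.23; adjusted p = 0.505). All 4 Timp3 probe sets were above 0 in both, from 0.55 to 0.73 at 2 ppm and from 0.47 to 0.62 at 6 ppm. Without animal 216, the 2 ppm animal at 9.76, the change was 0.91 and was called (adjusted p = 0.0367). In 81 of 82 refits that each left out 1 animal, no member was called at any of these doses and times. At 0.7 ppm and 5 d the change was 0.11. Stroma and vessel markers at 5 d averaged 10.54 in air (10.32 to 10.73), 10.87 at 2 ppm (10.35 to 11.29) and 10.66 at 6 ppm (10.53 to 10.90). These ranges overlapped, and the part of such cells was not tested. Mmp9 at 5 d and 6 ppm included 1 animal at 6.65 against 4.86 to 5.28 in the other 3, in a group where neutrophil markers ran from 5.82 to 7.72.

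**Figure D3:**
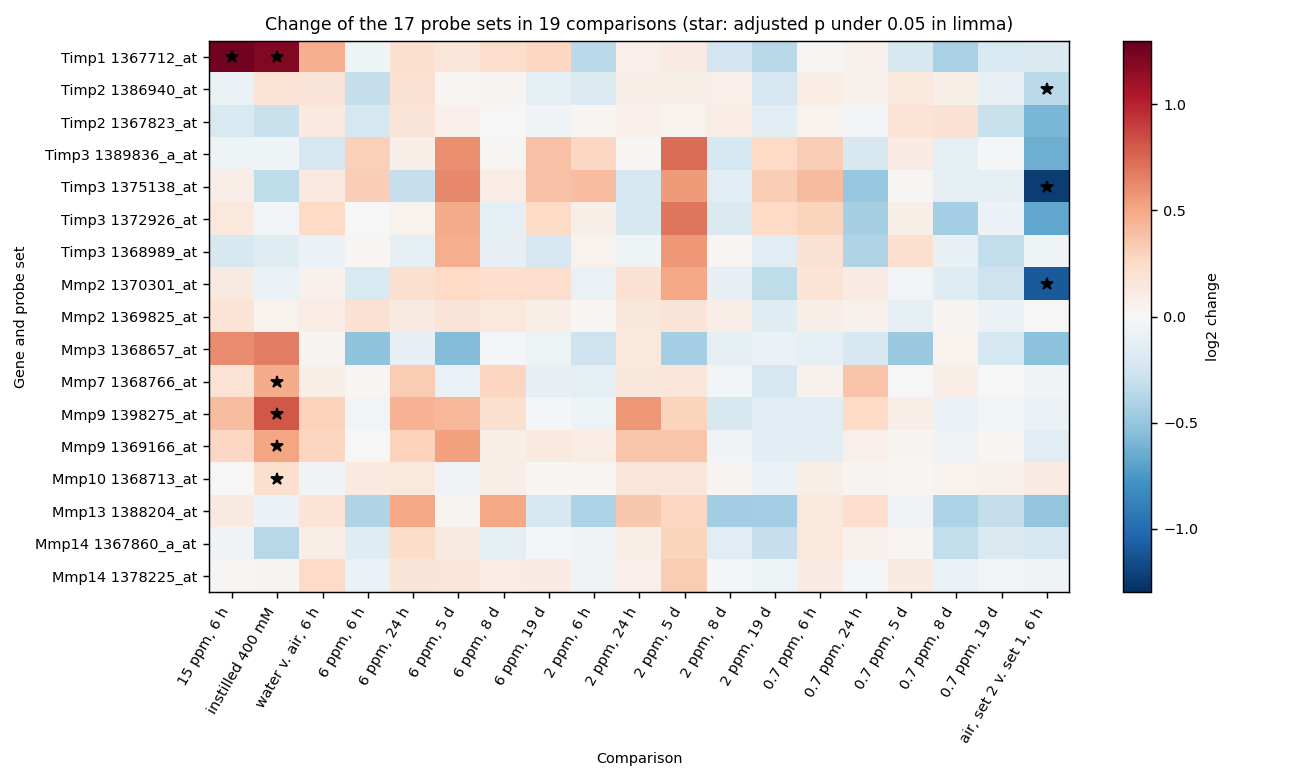
Log2 change of the 17 probe sets (rows) in 19 comparisons (columns), from blue (lower) to red (higher); a star marks an adjusted p under 0.05 in limma. Stars lie at 15 ppm (Timp1), instillation (Timp1, Mmp7, both of Mmp9, Mmp10) and in air of the second against the first array set (Timp2, Timp3, Mmp2), and in none of the 15 columns for 0.7, 2 and 6 ppm.

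Air animals alone differed with time of collection. An F-test over the 5 times called 4 of the 17 probe sets, in Mmp13 (adjusted p = 0.00039), the second probe set of Timp2 (0.00255), the second of Timp3 (0.00267) and the leading one of Mmp2 (0.00309), where 11.4% of all probe sets were called. Mmp13 means were 11.21 at 6 h, 11.32 at 24 h, 10.84 at 5 d, 10.08 at 8 d and 11.61 at 19 d, and those of Mmp2 were 8.97, 9.48, 9.09, 8.16 and 9.28. The 8 d group was the lowest in all 4 probe sets. The 5 air animals at 8 d had Mmp13 values of 9.81, 9.50, 11.22, 10.14 and 9.73, so that 1 of them, animal 66, lay with the other times. Animal 66 also had the highest Timp3 of its group, 10.80 against 8.75 to 9.38. Without it the F-test called 8 of the 17, all 4 Timp3 probe sets among them. The share of all probe sets called in that refit is not given here, so this count has no background beside it. Stroma and vessel markers of air animals averaged 10.00 at 8 d, against 10.37 to 10.71 at the other 4 times. The time of day and other handling of each collection were not analysed here.

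The air animals of both array sets, collected at 6 h, differed as well. In the second set 16 of the 17 probe sets lay below the first set, and 3 were called as falls: the second probe set of Timp3 fell by 1.24, the leading one of Mmp2 fell by 1.09 and the leading one of Timp2 fell by 0.35, with adjusted p of 0.00188, 0.0171 and 0.0447. Among all probe sets 4.7% were called and 2.21% as falls. Mmp2 read 9.21, 9.27, 8.71 and 8.69 in the first set and 7.67, 8.13, 7.54 and 8.18 in the second, without overlap. Leaving out 1 air animal in turn left between 1 and 3 of these calls, and Timp3 alone remained called without animal 321, 323, 49 or 50, with Mmp2 then at -1.02 to -0.98 (adjusted p from 0.0583 to 0.0782). Stroma and vessel markers ran from 10.17 to 10.54 in the first set and from 9.60 to 10.02 in the second, and the collagen Col3a1 and the proteoglycan Lum fell by 1.24 and 1.36. Their part in the difference was not tested. The array set and the animals in it cannot be told apart in this comparison.

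The choice of control therefore bore on the 15 ppm result. Against the first set's air animals Timp1 was still higher, by 1.07 (2.09-fold; adjusted p = 0.000207). With that control 6 of the 17 probe sets were called and 5 of them as lower: Timp2 (-0.44 and -0.79), Timp3 (-0.70 and -1.15) and Mmp2 (-0.97), where 15.3% of all probe sets were called. Against their own air animals those 5 gave -0.09, -0.20, -0.06, 0.08 and 0.12.

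**Figure D4:**
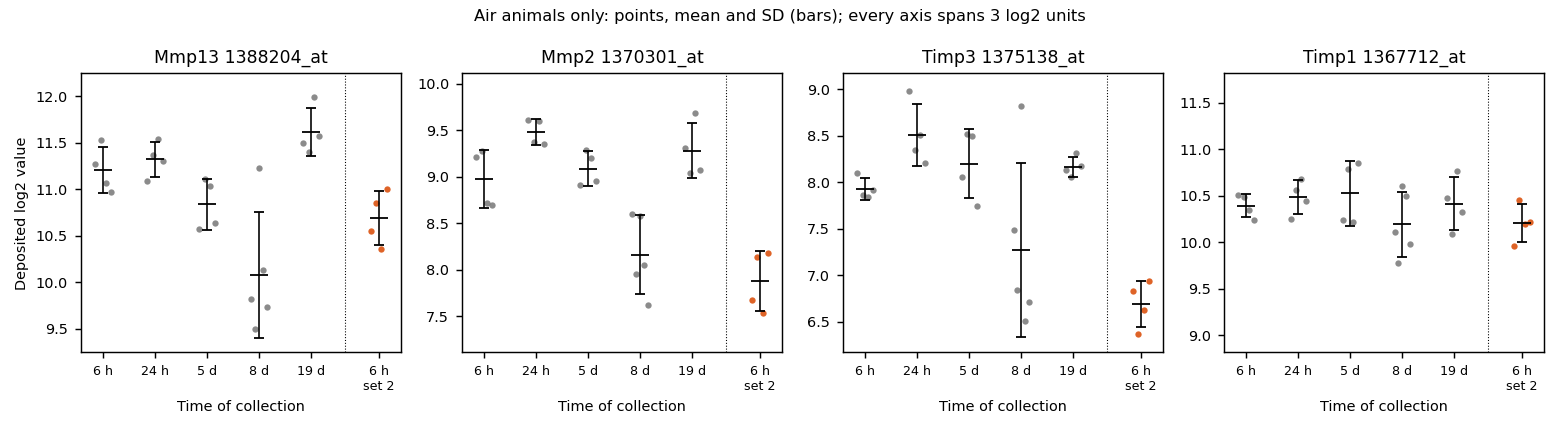
Air animals only, as deposited log2 values at 5 times in the first array set and at 6 h in the second (orange, right of the dotted line), for Mmp13, Mmp2, the second probe set of Timp3, and Timp1. Points are animals, bars the mean and SD, and every axis spans the same number of log2 units; Mmp13, Mmp2 and Timp3 were lowest at 8 d within the first set and Mmp2 and Timp3 were lower in the second set, while Timp1 means ran from 10.19 to 10.53.

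Members also varied together between animals of 1 group. The correlations that follow are descriptions over the 98 arrays of deviations from the group mean; both values come from the same RNA and so share its cell make-up. Mmp2 followed the level of 9 stroma and vessel markers most closely (Pearson r = 0.93, Spearman rho = 0.91), followed by Mmp14 (r = 0.78, rho = 0.77), Timp3 (r = 0.70, rho = 0.73) and Mmp13 (r = 0.58, rho = 0.57). Mmp2 and Mmp14 followed each other (r = 0.73, rho = 0.71). Mmp9 followed the neutrophil markers (r = 0.79, rho = 0.72) and not the stroma list to that degree (r = 0.29, rho = 0.29). Timp1 and Mmp13 varied together (r = 0.71, rho = 0.69). Timp1 followed the macrophage list (r = 0.50, rho = 0.50) and the secretory list (r = 0.50, rho = 0.51) alike, and less so the stroma (r = 0.41) and neutrophil lists (r = 0.37). It ran opposite to the olfactory list (r = -0.46, rho = -0.54), and so, more strongly, did Timp2 (r = -0.60, rho = -0.57). The other members were also below 0 with that list, from -0.40 for Mmp14 to -0.01 for Mmp7. With the 2 arrays farthest from the median left out these values moved by little, for example to 0.91 for Mmp2 with stroma and 0.74 for Mmp9 with neutrophil markers. Mmp7 and Mmp10 followed the other members least, the highest value being 0.31, for Mmp10 with Mmp3.

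**Figure D5:**
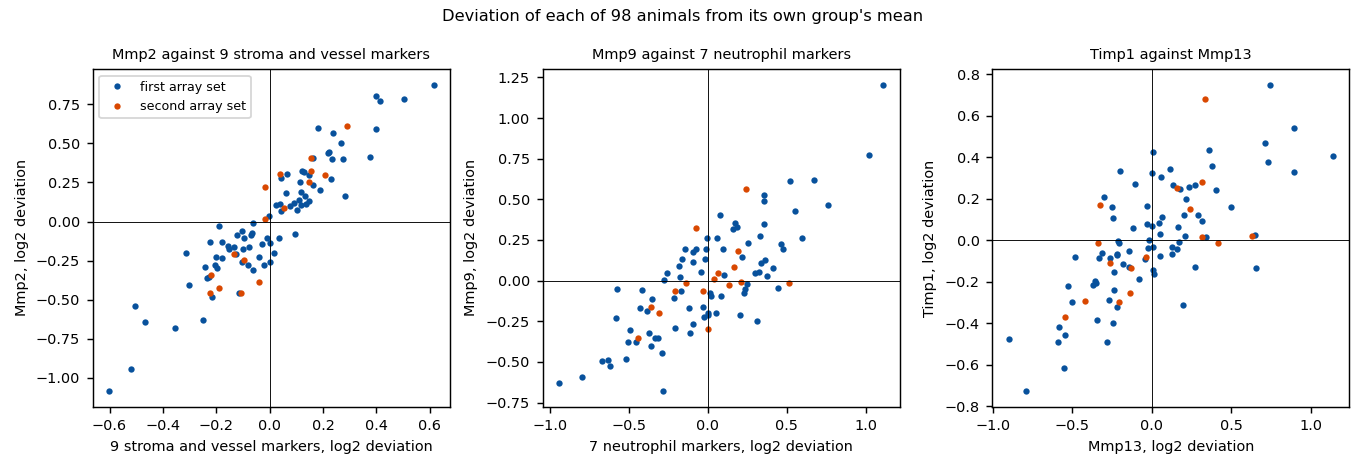
Deviation of each of 98 animals from the mean of its group, in log2 units: Mmp2 against stroma and vessel markers (left), Mmp9 against neutrophil markers (middle) and Timp1 against Mmp13 (right). Points are animals, blue for the first and orange for the second array set; the correlations are 0.93, 0.79 and 0.71.

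Probe sets of 1 gene did not always move alike. The second probe set of Mmp2, which is dim, gave 0.00 in that comparison of array sets, where the leading one fell by 1.09. The second probe set of Mmp14 gave 0.04 after instillation against -0.36 for the leading one, and the 2 of Timp2 gave 0.17 and -0.29, none of them called. For Timp3 the 4 probe sets ranged from -0.33 to -0.03 after instillation.

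Genes whose 24 group means ran most like those of a member were taken from all genes by Pearson's r, as a description over groups that share arrays and controls. For Timp1 they were the lysosomal proteinase Ctsl (r = 0.93), the interleukin receptor Il17ra (0.92), Ppp1r18 (0.88), Hnrnpab (0.88) and the NF-kappaB subunit Nfkb2 (0.87). For Mmp9 they were Pglyrp1 (0.91), a granule protein of neutrophils, then Mefv (0.87), Il17ra (0.86), Emilin2 (0.86) and S100a8 (0.86). For Mmp3 they were Rasgrp2 (0.85), Cgref1 (0.80), Ccl21 (0.80), Aplnr (0.79) and Cdc42ep1 (0.79).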

How the data were processed

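The authors deposited 1 log2 value per probe set and array (Rat230_2) for 98 arrays, values from 2.67 to 14.83; the scale was read from the values. A Qiagen micro RNA kit and the standard Affymetrix labelling were used, per the labels. Probe summary, background correction and normalization are not given in the sources used here, and no detection calls were used. Of 31099 probe sets, 57 controls were left out. Symbols came from the platform annotation, updated by gene identifier to RefSeq (GRCr8): 20826 probe sets had 1 symbol, 436 several and 9780 none.

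In R 4.3.3, limma 3.58.1 fitted 1 coefficient per group to all arrays (74 residual df; files read with the data.table package, version 1.17.8). Contrasts used air or water of the same time and array set, with Benjamini-Hochberg adjustment over 31042 probe sets within each of 24 contrasts and an F-test of air over 5 times. SDs are between animals and SEs are the model's. Every replicate was a separate animal; arrays give no counts, so their number limits the precision. The code was tested on simulated data. The labels of 4 rats at 0.7 ppm and 8 d read 0.07 ppm in the treatment field; the titles' 0.7 was used.

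The members and lists were chosen with earlier results of these data known. All 17 member probe sets are accounted for; other genes of the proteolytic and upstream lists are named if called at 15 ppm or after instillation, and others by likeness to Timp1, Mmp9 and Mmp3. Cell type markers, Col3a1 and Lum fall outside that rule and were chosen after their values were seen. Alternatives were cyclic loess, only probe sets at 6 or above in at least 4 arrays, only the groups compared, the air of the other array set, other probe sets and each animal left out.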

Additional observations from a re-analysis of the deposited data

Results flagged for a closer look

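In 240 combinations of a leading probe set and a group, 11 had 1 animal set apart from the others by Dixon's test; chance flags about 1 in 20 groups. For Timp3 they were animal 325 of the second set's air group, at 9.32 (others 8.87 to 8.91), and animal 154 at 0.7 ppm and 19 d, at 10.23 (9.54 to 9.62). Mmp2 had animal 212 at 2 ppm and 24 h, at 9.39 (9.76 to 9.79), and Mmp14 had animal 57 in air at 24 h, at 10.66 (10.74 to 10.76). Mmp13 had animal 223 at 2 ppm and 8 d, at 10.27 (9.38 to 9.45), and animal 297 at 6 ppm and 5 d, at 10.37 (11.00 to 11.07). Among the dim probe sets, Mmp3 had animal 131 at 0.7 ppm and 6 h, at 4.00 (4.13 to 4.14), and Mmp7 had animal 144 at 0.7 ppm and 8 d, at 4.23 (4.40 to 4.41). Mmp10 had animal 52 in air at 6 h of the first set, at 3.54 (3.69 to 3.72), animal 143 at 0.7 ppm and 8 d, at 3.58 (3.68 to 3.69), and animal 213 at 2 ppm and 24 h, at 4.07 (3.81 to 3.85). None of these 11 lay in a 15 ppm, water or instilled group.

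The Timp1 effect of 15 ppm exceeded that of 6 ppm at 6 h by 1.31 in the test of the difference itself. The 2 doses lie in different array sets, so dose and array set cannot be told apart except through each set's own air animals.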

How the results depend on the processing

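The Timp1 rise was called under every alternative run, from 1.07 to 1.35 at 15 ppm and from 1.08 to 1.43 after instillation. Members called after instillation (5) were 3 under cyclic loess, 2 among bright probe sets (12 of the 17 members kept) and 3 with only the groups compared in the fit; each animal left out gave 2 to 5. At 15 ppm (1) the count was 2 with only the groups compared and 6 with the first set's air, where Mmp2 turned to -0.97. The 15 against 6 ppm difference (1) gave 2 with only the groups compared and 0 to 1 with animals left out. Lower doses (0) gave 0 to 1 at each time and 0 to 1 averaged over times, where 8 of 82 refits called the second probe set of Mmp2, or Timp3. Air across times (4) gave 4 to 8 with animals left out, 3 with only the groups compared in the fit and 5 under cyclic loess. The array-set comparison of air (3) gave 6 with only the groups compared and 1 to 3 with animals left out. The causes were not tested, except that fewer probe sets or animals enter by construction. No paired analysis was possible because no rat was sampled in more than 1 group. Dim signals limit Mmp3, Mmp7, Mmp10 and the second probe sets of Mmp9 and Mmp2, and 4 animals a group limit all.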
